A study of Mus musculus with 3 samples.

Results

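The expression of the meteorin family and of a candidate receptor system was examined in regenerating mouse muscle through 4 genes, Metrnl, Metrn, Kit and Kitl, among the 32285 features of the deposited single-cell count matrices. The 4 genes were taken by their symbols with earlier results of these data known, by a rule that uses no measured value, and all 4 had UMIs (unique molecular identifiers, which count captured RNA molecules) in every library. Metrnl encodes meteorin-like, a secreted protein known from exercised muscle, adipose tissue and macrophages, where it is linked to type 2 and repair-associated macrophage gene expression. Metrn encodes meteorin, its secreted paralogue, first known for effects on glial cells and neurite growth. Kit encodes a type III receptor tyrosine kinase known on mast cells, blood progenitors, melanocytes and some innate lymphoid cells, and it has been described as a receptor for meteorin-like on endothelial cells. Kitl encodes stem cell factor, the established ligand of KIT, which stromal and endothelial cells make in membrane-bound and soluble forms.

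In the GRCm38 annotation, Metrnl (ENSMUSG00000039208) lies on the plus strand of chromosome 11 at 121701544 to 121716306, and Metrn (ENSMUSG00000002274) on the minus strand of chromosome 17 at 25793221 to 25797136. Kit (ENSMUSG00000005672) lies on the plus strand of chromosome 5 at 75574916 to 75656722, and Kitl (ENSMUSG00000019966) on the plus strand of chromosome 10 at 100015630 to 100100416. Metrn shares 2439 bases with AC134908.4 on the same strand, and it also overlaps Gm26694 on the opposite strand. AC134908.4 was not among the deposited features, so a read from the shared stretch could have been counted as Metrn. No other annotated gene overlapped the other three.

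All mice were of the C57/BL6J strain according to the study's methods, and no engineered allele is named for these groups in the labels. Tibialis anterior muscle was injured with barium chloride (BaCl2) and taken 4 days later from young mice given phosphate-buffered saline (young PBS), old mice given the same (old PBS) and old mice injected in the muscle with recombinant meteorin-like protein after the injury (old rMETRNL). The injected agent is a protein, so Metrnl transcripts in the third group are those of the mouse. Each group was 1 library, which the methods describe as pooled triplicate samples, so there was no replicate, no test between groups was made, and every interval given below is a 95% interval that covers counting error only. Below, the old-to-young ratio divides the level in old PBS by that in young PBS, and the rMETRNL-to-PBS ratio divides old rMETRNL by old PBS. Both use the old PBS library, and differences describe these libraries, not the spread between mice.

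The files held 12168, 12568 and 14012 cell barcodes in the order given above, with 179295668 to 228966697 UMIs per library. After filtering, 10286, 9944 and 11360 cells were kept, 31590 in all. Pairs of libraries shared 58 to 80 barcodes. Cells were clustered and named from marker genes, and 8 classes had at least 50 cells in every library: macrophage/monocyte-like, dendritic-like, T/NK-like, fibro/adipogenic progenitor-like (FAP-like), tenocyte-like, endothelial-like, pericyte/smooth muscle-like and myogenic-like. Muscle cells of the labelled tissue were present as 449, 199 and 418 myogenic-like and 34, 432 and 130 muscle fibre-like cells, in the order young PBS, old PBS and old rMETRNL, which is kept throughout. The 690 cells of sub-clusters led by markers of a class other than their own stayed unnamed. Levels are CPM: within 1 library, the gene's UMIs in a class were added up, divided by all UMIs of the class and multiplied by 1000000. A level in a class does not tell how many cells of that class the muscle held.

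The 4 genes had different leading classes. Metrnl was highest in macrophage/monocyte-like cells, Kit in dendritic-like and endothelial-like cells and Kitl in endothelial-like cells, while Metrn was highest in T/NK-like, myogenic-like and pericyte/smooth muscle-like cells, which overlapped, among the 8 classes compared. In the plot of levels by class, these orders were the same in all 3 libraries for the leading classes of Metrnl and Kitl.

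**Figure D1:**
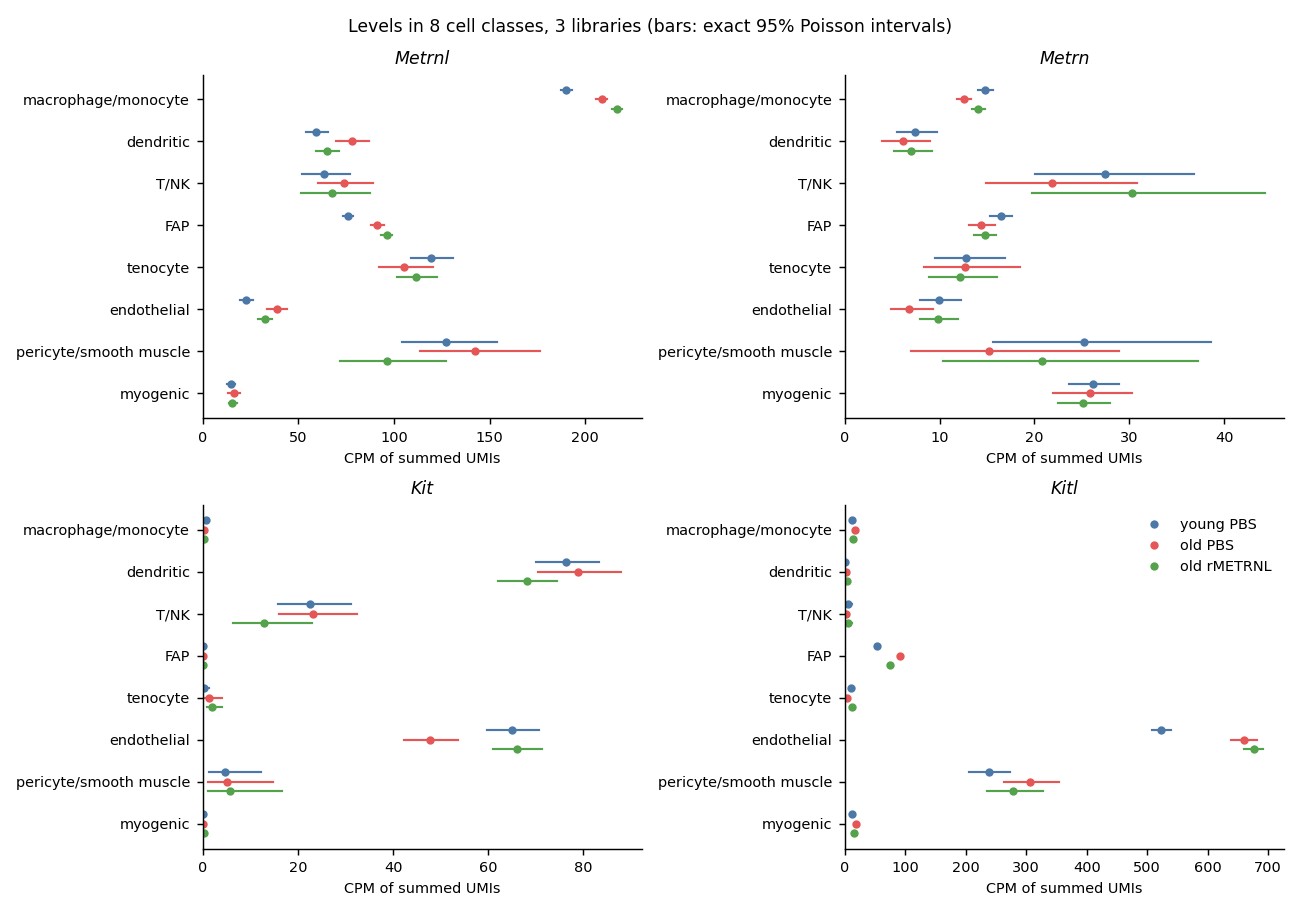
Level of each gene in 8 cell classes (CPM of summed UMIs, linear axis, a separate scale for each gene), 1 point per library with its exact 95% Poisson interval. Metrnl sits highest in macrophage/monocyte-like cells (190.1, 209 and 217), Kit in dendritic-like and endothelial-like cells, and Kitl in endothelial-like cells (524, 660 and 676).

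In macrophage/monocyte-like cells, Metrnl stood at 190.1 CPM in young PBS (interval 187 to 193), 209 in old PBS (206 to 211) and 217 in old rMETRNL (214 to 219), from 18702, 20447 and 24122 UMIs. The 3 intervals did not overlap, and the steps were small, with an old-to-young ratio of 1.10 (1.08 to 1.12) and an rMETRNL-to-PBS ratio of 1.04 (1.02 to 1.06). This class held 77.5%, 82.3% and 79.1% of all Metrnl UMIs in kept cells. When every cell was reduced at random to 2000 UMIs, here called thinning, 29.0%, 31.8% and 31.6% of macrophage/monocyte-like cells had a Metrnl UMI (77.1%, 80.5% and 81.0% unthinned), with 113, 211 and 172 shallower cells left out. Myogenic-like cells, taken as a reference with the lowest Metrnl level, showed 2.61%, 5.82% and 3.29% after thinning, at median depths of 29254, 26823 and 29088 UMIs against 14062.5, 14668 and 14290.

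Outside that class, Metrnl ranged from 96.6 to 142 CPM in pericyte/smooth muscle-like cells, from 105 to 119 in tenocyte-like cells and from 76.0 to 96.2 in FAP-like cells. T/NK-like cells ranged from 63.5 to 73.7 and dendritic-like cells from 59.5 to 77.9, endothelial-like cells from 22.8 to 38.8 and myogenic-like cells from 14.8 to 16.2. The neighbours in this order were not always separable. Pericyte/smooth muscle-like and tenocyte-like cells overlapped within counting error in all 3 libraries, as did T/NK-like and dendritic-like cells.

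FAPs are the mesenchymal cells that lay down matrix in injured muscle. FAP-like cells held 76.0, 91.1 and 96.2 CPM of Metrnl, with no overlap between young PBS and either old library, an old-to-young ratio of 1.199 (1.14 to 1.26) and an rMETRNL-to-PBS ratio of 1.055 (1.006 to 1.11). The 12 macrophage markers summed to 191, 213 and 227 CPM in FAP-like cells, all 12 detected, against 25820, 23500 and 24280 in macrophage/monocyte-like cells. Metrnl came to 39.8, 42.7 and 42.5 per 100 CPM of those markers in FAP-like cells. In macrophage/monocyte-like cells it came to 0.736, 0.888 and 0.893. The part of those markers in the FAP-like result was not tested.

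In endothelial-like cells, which line the vessels, Metrnl stood at 22.8, 38.8 and 32.4 CPM from 198, 223 and 318 UMIs. The young library lay below both old libraries, with an old-to-young ratio of 1.70 (1.40 to 2.07) and an rMETRNL-to-PBS ratio of 0.835 (0.702 to 0.996). The rMETRNL-to-PBS ratio was 1.02 when per-cell CPM were averaged instead of summed. The macrophage markers in this class ran in the same order, at 294, 541 and 394 CPM with all 12 detected, and the median depth was 10792, 3603 and 6634 UMIs. Metrnl came to 7.77, 7.18 and 8.22 per 100 CPM of the markers, near to level across the libraries and above the 0.736 to 0.893 of macrophage/monocyte-like cells, and the part of either in the result was not tested. Other marker lists ran in that order as well in this class, muscle fibre markers at 26.9, 288 and 68.7 CPM, erythroid markers at 26.3, 191 and 42.9 CPM and T/NK markers at 1.96, 9.40 and 2.75 CPM, and their part was not tested. Cd3e, a defining T cell marker, was at 0 in young PBS. Dendritic-like cells ran in the same order, at 59.5, 77.9 and 64.8 CPM, an old-to-young ratio of 1.31 (1.13 to 1.52) and an rMETRNL-to-PBS ratio of 0.833 (0.720 to 0.963). In that class the muscle fibre markers went the same way, at 119, 259.6 and 158 CPM with Myh2 at 0 in young PBS and old PBS, and the dendritic markers were also highest in old PBS, at 1617, 2227 and 1554 CPM, and the part of either was not tested.

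Pericyte/smooth muscle-like cells, the mural cells of vessels, showed 127, 142 and 96.6 CPM of Metrnl from 106, 84 and 51 UMIs. The rMETRNL-to-PBS ratio was 0.679 (0.470 to 0.972), while the old-to-young ratio of 1.12 had an interval that included 1. Macrophage markers in this class ran the other way, at 2189, 1092 and 2348 CPM, with Ly6c2 at 0 in old rMETRNL. Tenocyte-like, T/NK-like and myogenic-like cells had intervals that included 1 in both contrasts.

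Among macrophage/monocyte-like subsets, Metrnl was highest in the Ly6c2/Chil3/Plac8 subset, whose genes mark recently recruited monocytes, at 278, 263 and 342 CPM. The old rMETRNL library stood above both others there, with an rMETRNL-to-PBS ratio of 1.30 (1.23 to 1.37) and an old-to-young ratio of 0.945 (0.890 to 1.002). The Cd163/Lyve1/Cbr2 subset, whose genes mark resident-type macrophages, followed at 248, 249.9 and 236 CPM and differed little between libraries. The Il1a/Slc7a11/Ccrl2 subset held 216, 201 and 201 CPM, the cycling subset 197, 201 and 207, and the Spp1/Gpnmb/Atp6v0d2 subset 184, 199.6 and 203.

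The lowest Metrnl levels of the young library were in a pair of subsets that stood apart from the rest by age. One of them was scored highest by the Cx3cr1/Olfml3 marker list, but its leading genes were Hes1, Dnase1l3 and heat-shock genes such as Hspa1b and Hspa1a, with the muscle gene Mylpf among them, and it is called here by the first of these. In this Hes1/Dnase1l3/Hspa1b subset the level was 134, 198 and 182 CPM, an old-to-young ratio of 1.48 (1.35 to 1.62). In the subset led by interferon-induced genes it was 127, 185 and 198 CPM, an old-to-young ratio of 1.45 (1.30 to 1.61), and its size differed widely, at 1293, 192 and 828 cells. In both subsets the 2 old libraries lay above the young library, and their rMETRNL-to-PBS ratios of 0.920 and 1.07 had intervals that included 1. With the subset make-up of young PBS held fixed, the old-to-young ratio of the whole class was 1.08, against 1.10 as measured.

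FAP-like subsets differed more from each other than the libraries did. The Pi16/Dpp4 subset, whose genes mark the progenitor-like fibroblasts of connective tissue sheaths, held 225, 209 and 221 CPM of Metrnl, within counting error of each other in the age and treatment contrasts. The Inmt/Myoc/C7 subset followed at 152, 106 and 120 CPM, an old-to-young ratio of 0.695 (0.570 to 0.845), which ran opposite to the class as a whole. The Cxcl10/Ccl7, cycling and Crabp1/Il11/Inhba subsets lay between 58.6 and 85.0 CPM. Cells of the FAP-like class assigned to no subset went from 59.9 to 87.5 and 87.3 CPM, an old-to-young ratio of 1.46 (1.33 to 1.598).

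**Figure D2:**
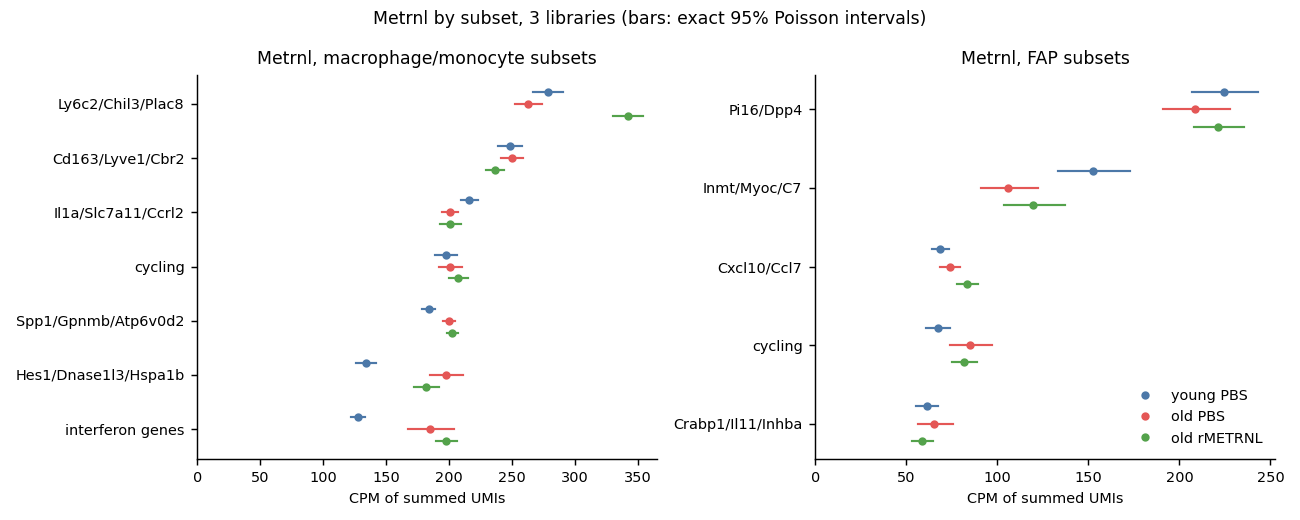
Metrnl level (CPM of summed UMIs, linear axis from 0) in 7 macrophage/monocyte subsets and 5 FAP subsets, 1 point per library with its exact 95% Poisson interval. The Ly6c2/Chil3/Plac8 subset of old rMETRNL is highest at 342, and the Pi16/Dpp4 subset is the highest FAP subset in each library at 209 to 225.

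Metrn did not exceed 30.3 CPM in any of the 8 classes. T/NK-like cells had the highest mean over the libraries, at 27.5, 21.8 and 30.3 CPM, but from 45, 32 and 26 UMIs. Myogenic-like cells followed at 26.2, 25.8 and 25.1 CPM from 394, 152 and 341 UMIs, and these classes could not be told apart within counting error. After thinning to 2000 UMIs, 3.48%, 2.79% and 6.25% of T/NK-like cells had a Metrn UMI, from 7, 5 and 7 cells, against 0.664%, 0.298% and 1.12% of dendritic-like cells.

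The other classes held 15.3 to 25.2 CPM of Metrn in pericyte/smooth muscle-like cells, 14.4 to 16.5 in FAP-like cells, 12.5 to 14.8 in macrophage/monocyte-like cells and 12.1 to 12.8 in tenocyte-like cells. Endothelial-like cells held 6.79 to 9.92 and dendritic-like cells 6.10 to 7.40. Macrophage/monocyte-like cells contributed 49.1%, 58.3% and 53.4% of all Metrn UMIs as the class with the most cells, and FAP-like cells 20.5% to 25.3%. Schwann/glial-like cells, a lineage in which meteorin was first studied, stood above the 8 classes at 172, 50.3 and 105 CPM. These values rested on 25, 69 and 45 cells with 39, 16 and 26 UMIs, below the size set for a comparison. Muscle fibre-like cells showed 42.9, 58.0 and 65.3 CPM from 6, 86 and 29 UMIs.

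The old-to-young ratio of Metrn was 0.848 (0.785 to 0.915) in macrophage/monocyte-like cells, at 14.8, 12.5 and 14.1 CPM. Old PBS was lowest, with an rMETRNL-to-PBS ratio of 1.12 (1.04 to 1.21). Summed erythroid (0.105 with age, 3.83 with treatment), mast/basophil (0.213, 2.10) and FAP markers (0.556, 1.34) moved the same way in this class. Muscle fibre (2.11, 0.556) and T/NK markers (1.78, 0.731) moved the other way, and the part of any was not tested. In FAP-like cells the levels were 16.5, 14.4 and 14.8 CPM and the old-to-young ratio 0.875 (0.775 to 0.986). In T/NK-like cells the ratios were 0.794 (0.489 to 1.28) for age and 1.39 (0.793 to 2.40) for treatment, and counting error covered both. All remaining classes had intervals that included 1 in both contrasts, as in myogenic-like cells at 0.986 (0.812 to 1.19) and 0.972 (0.801 to 1.18).

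A regularity of Metrn was its level in cycling cells. The cycling subset of macrophage/monocyte-like cells held 36.0, 29.9 and 30.7 CPM, and no other named subset of the class passed 15.3 CPM in any library. In FAP-like cells the cycling subset held 31.1, 35.2 and 27.7 CPM against at most 19.5 in any other named subset. In endothelial-like cells it held 17.2, 20.5 and 17.2 CPM against at most 9.36. The intervals of the cycling subset stood clear of every other named subset in all 3 libraries for macrophage/monocyte-like and FAP-like cells. Old PBS was below young PBS in the cycling macrophage/monocyte-like subset, at a ratio of 0.829 (0.708 to 0.971), and in the Spp1/Gpnmb/Atp6v0d2 subset, at 0.848 (0.738 to 0.974). At the subset make-up of young PBS, the old-to-young ratio of Metrn was 0.880 in macrophage/monocyte-like cells and 0.955 in FAP-like cells.

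**Figure D3:**
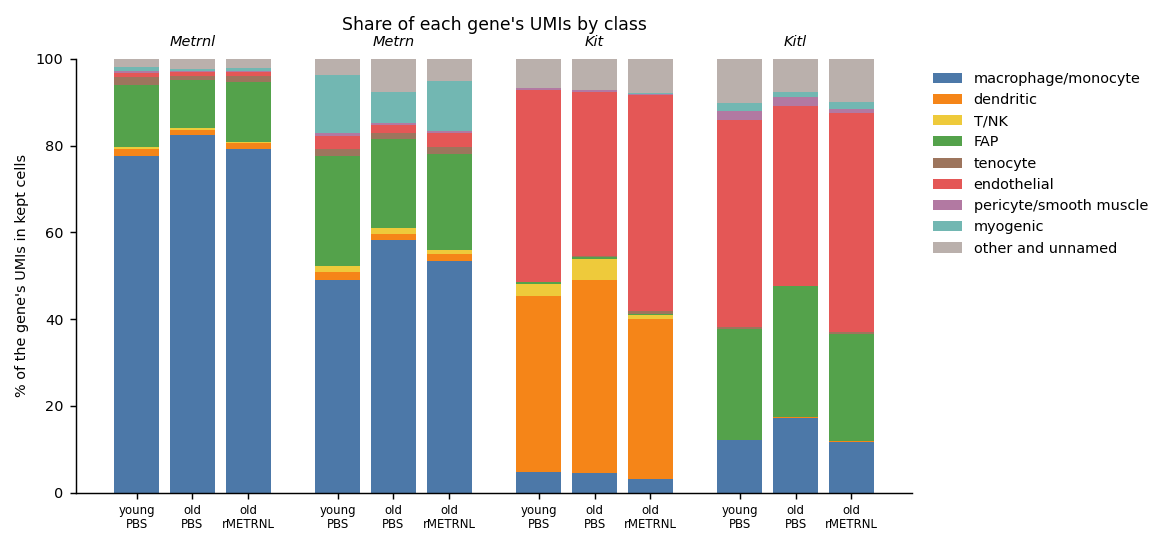
Share of each gene's UMIs in kept cells that fell in each class (percent, stacked to 100), 1 bar per library. Macrophage/monocyte-like cells hold 77.5% to 82.3% of Metrnl and 49.1% to 58.3% of Metrn, dendritic-like and endothelial-like cells together hold most of Kit, and endothelial-like cells hold 41.6% to 50.4% of Kitl.

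Kitl was highest in cells of the vessel wall in all 3 libraries. Endothelial-like cells held 524 CPM in young PBS (509 to 539), 660 in old PBS (639 to 681) and 676 in old rMETRNL (660 to 693), from 4540, 3791 and 6632 UMIs. Both old libraries lay above the young library and close to each other, with an old-to-young ratio of 1.26 (1.21 to 1.32), an rMETRNL-to-PBS ratio of 1.02 (0.984 to 1.07) and a ratio of old rMETRNL to young PBS of 1.29 (1.24 to 1.34). A Kitl UMI was found in 57.2%, 69.8% and 67.6% of endothelial-like cells thinned to 2000 UMIs, with 38, 208 and 186 shallower cells left out, against 0.498%, 0.595% and 0.479% of dendritic-like cells at median depths of 10477, 11737.5 and 10561 UMIs. Unthinned, the endothelial shares were 90.0%, 81.6% and 85.5%, which went against the order of the CPM at median depths of 10792, 3603 and 6634 UMIs, and no order was read from them.

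Within endothelial-like cells, Kitl was highest in the Gpihbp1/Rgcc capillary subset at 627, 807 and 911 CPM. Its intervals did not overlap at either step, with an old-to-young ratio of 1.29 (1.199 to 1.38) and an rMETRNL-to-PBS ratio of 1.13 (1.062 to 1.199). The Gja5/Sema3g arterial subset held 516, 627 and 688 CPM and the cycling subset 478, 581 and 610. In the Vwf/Selp/Ackr1 venous subset the levels were 438, 524 and 452 CPM, an old-to-young ratio of 1.19 (1.08 to 1.32) and an rMETRNL-to-PBS ratio of 0.862 (0.780 to 0.953). The old-to-young ratio of Kitl was above 1 in all 4 named endothelial subsets, whereas the rMETRNL-to-PBS ratio was above 1 in capillary-type cells and below 1 in venous-type cells, and the difference between these subsets was not tested.

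The next highest class was pericyte/smooth muscle-like cells, at 238, 307 and 278 CPM of Kitl from 198, 181 and 147 UMIs, an old-to-young ratio of 1.29 (1.05 to 1.58). The 10 endothelial markers summed to 417, 434 and 371 CPM there, with Tek and Vwf, Tie1 and Tek, and Vwf at 0 in the 3 libraries. Kitl came to 57.1, 70.7 and 75.0 per 100 CPM of those markers, against 8.46, 10.2 and 11.04 in endothelial-like cells, and their part was not tested. FAP-like cells followed with 53.3, 91.2 and 74.7 CPM, from 2432, 2744 and 3262 UMIs.

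At the main settings, FAP-like cells gave the largest old-to-young ratio of Kitl among classes whose interval lay above 1, at 1.71 (1.62 to 1.81). Under other settings the ratio reached 1.75 in macrophage/monocyte-like cells, against 1.68 to 1.74 in FAP-like cells. In FAP-like cells the rMETRNL-to-PBS ratio was 0.819 (0.778 to 0.862), and old rMETRNL stayed above young PBS by a ratio of 1.40 (1.33 to 1.48). The 3 libraries did not overlap. The ratio was above 1, interval included, in 4 of 5 named FAP subsets, as in the Crabp1/Il11/Inhba subset (55.5, 103.5 and 91.7 CPM), the cycling subset (48.9, 91.2 and 71.2) and the Cxcl10/Ccl7 subset (78.1, 111 and 98.7). The Inmt/Myoc/C7 subset, at 57.7, 71.3 and 72.5 CPM, had an interval that included 1. At the subset make-up of young PBS the old-to-young ratio of the class was 1.69. Endothelial markers in FAP-like cells ran in the same order at 29.96, 44.4 and 37.0 CPM, all 10 detected. Kitl was 178, 205 and 202 per 100 CPM of them, against 8.46 to 11.04 in endothelial-like cells. The part of these markers in the result was not tested. The 9 muscle fibre markers ran in that order too, at 20.7, 88.3 and 35.1 CPM in FAP-like cells, with Myh2 at 0 in both old libraries, and their part in the result was not tested.

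The same order, old PBS highest, was found at lower levels in macrophage/monocyte-like and myogenic-like cells. Macrophage/monocyte-like cells held 11.6, 16.1 and 13.7 CPM of Kitl, an old-to-young ratio of 1.38 (1.28 to 1.49) and an rMETRNL-to-PBS ratio of 0.855 (0.796 to 0.918). Within them the Cd163/Lyve1/Cbr2 subset was highest of the named subsets at 27.2, 35.2 and 21.6 CPM, an rMETRNL-to-PBS ratio of 0.612 (0.533 to 0.703), and old rMETRNL was below young PBS. The endothelial markers of the class stood at 29.3, 28.9 and 29.9 CPM. The muscle fibre markers ran in the order of Kitl, at 68.2, 144 and 79.97 CPM with all 9 detected, and their part in the result was not tested.

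In myogenic-like cells Kitl stood at 11.6, 18.7 and 14.7 CPM from 174, 110 and 199 UMIs, an old-to-young ratio of 1.62 (1.26 to 2.06) and an rMETRNL-to-PBS ratio of 0.784 (0.618 to 0.998). The endothelial markers there ran in the same order, at 10.2, 19.0 and 12.7 CPM, and their part in the result was not tested. The rMETRNL-to-PBS ratio turned to 1.12 with a stricter filter on cells that left 32 old PBS cells in the class.

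Tenocyte-like cells, the tendon fibroblasts, ran the opposite way, at 11.01, 3.30 and 12.1 CPM of Kitl from 43, 7 and 48 UMIs. The old-to-young ratio was 0.299 (0.114 to 0.671) and the rMETRNL-to-PBS ratio 3.67 (1.65 to 9.62), so old PBS was the low library and young PBS and old rMETRNL overlapped. Other ways of filtering, clustering and averaging moved these ratios between 0.270 and 0.524 and between 2.86 and 5.76. The macrophage markers of the class were highest in old PBS, at 681, 2162 and 1193 CPM, and their part was not tested. T/NK-like cells held 2.73 to 6.11 CPM from at most 10 UMIs, and dendritic-like cells 1.04 to 3.40 CPM from 7, 10 and 24 UMIs.

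**Figure D4:**
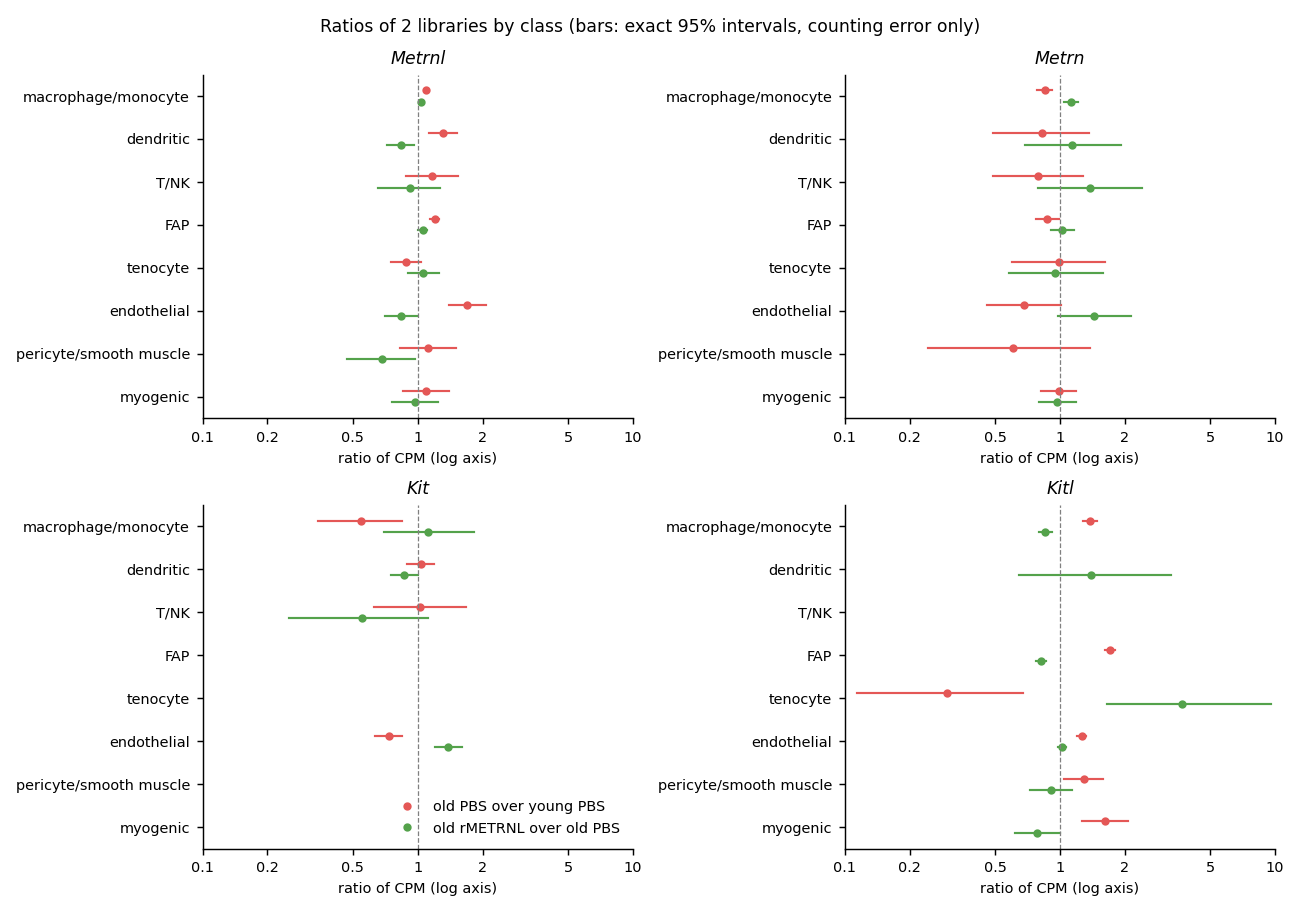
Ratio of CPM between 2 libraries by class (log axis, dashed line at 1), red for old PBS over young PBS and green for old rMETRNL over old PBS, with exact 95% intervals for counting error only and gaps where both libraries together held under 30 UMIs. The Kitl old-to-young ratio is 1.71 in FAP-like and 0.299 in tenocyte-like cells, and the Kit ratios in endothelial-like cells are 0.733 and 1.39.

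Kit transcripts were rare and confined largely to 2 classes. A Kit UMI was found in 467, 303 and 522 cells, 1292 of 31590 in all, of which 573 were dendritic-like and 491 endothelial-like. Dendritic-like cells held 40.5%, 44.6% and 36.8% of the Kit UMIs and endothelial-like cells 44.2%, 37.8% and 49.7%. Dendritic-like cells stood at 76.4 CPM in young PBS (70.0 to 83.3), 78.9 in old PBS (70.5 to 88.0) and 68.1 in old rMETRNL (62.2 to 74.5), from 516, 323 and 480 UMIs. They stood above endothelial-like cells in all 3 libraries, but the intervals of both classes overlapped in young PBS and old rMETRNL and stood apart only in old PBS, where endothelial-like cells were at 47.7 CPM.

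After thinning to 2000 UMIs a Kit UMI was found in 10.3%, 13.4% and 12.6% of dendritic-like cells (35.0%, 37.6% and 35.9% unthinned, with 12, 4 and 15 shallower cells left out) and in 8.88%, 6.97% and 7.61% of endothelial-like cells. It was found in 0 of 1649, 0 of 1331 and 0 of 1661 FAP-like cells, which allows shares of up to 0.182%, 0.225% and 0.181% of cells with a UMI. Unthinned, FAP-like cells held 5, 3 and 4 Kit UMIs, or at most 0.110 CPM.

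In dendritic-like cells, which present antigen, Kit had an old-to-young ratio of 1.03 (0.895 to 1.19) and an rMETRNL-to-PBS ratio of 0.864 (0.748 to 0.998). The rMETRNL-to-PBS ratio turned to 1.06 and the old-to-young ratio to 0.777 with a filter of at least 1000 genes and under 5% mitochondrial UMIs, which put 488 instead of 340 old PBS cells in the class. Among the named subsets, Kit was highest in Xcr1/Clec9a cells, the cross-presenting type, at 126, 135 and 114 CPM. Cd209a/Clec10a cells held 124, 89.7 and 101 CPM. Of the named subsets, Kit was lowest in the migratory Ccr7/Ccl22 cells, at 32.3, 47.2 and 33.7 CPM. The Cd209a/Clec10a subset was a sub-cluster of 208 cells. Other sub-clusters, of 229, 223 and 158 cells, scored highest on the same list but stayed without a subset name and are not ranked here. The Cd209a/Clec10a subset had an old-to-young ratio of 0.723 (0.524 to 0.998), and the other subset ratios for age and treatment had intervals that included 1.

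In endothelial-like cells, Kit stood at 65.1, 47.7 and 66.1 CPM from 564, 274 and 648 UMIs. Old PBS was the low library and the other libraries overlapped, with an old-to-young ratio of 0.733 (0.632 to 0.848), an rMETRNL-to-PBS ratio of 1.39 (1.201 to 1.601) and a ratio of old rMETRNL to young PBS of 1.02 (0.905 to 1.14). The dendritic markers summed to 246, 209 and 252 CPM in this class, with Xcr1 and Siglech, then Flt3, Xcr1, Ccr7 and Kmo, then Clec9a, Ccl22, Itgae and Kmo at 0. Kit came to 26.5, 22.8 and 26.2 per 100 CPM of them, against 4.73, 3.54 and 4.38 in dendritic-like cells. Old PBS also had the lowest median depth of this class, as given above. Its muscle fibre markers had summed ratios of 10.7 with age and 0.239 with treatment, and its erythroid markers 7.26 and 0.225. The part of depth and of these markers in the Kit levels was not tested.

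Kit was spread unevenly over the vessels. A sub-cluster led by Apln, Pgf, Mfap3l and Tnc, which matched no named subset, had the highest level at 187, 184 and 111 CPM from 51, 31 and 82 cells, an rMETRNL-to-PBS ratio of 0.604 (0.473 to 0.776). Apln and Pgf encode secreted factors known from sprouting endothelium. The cycling subset held 66.3, 32.8 and 101 CPM from 150, 24 and 188 UMIs, with an old-to-young ratio of 0.494 (0.307 to 0.764) and an rMETRNL-to-PBS ratio of 3.08 (2.01 to 4.92). The venous subset held 35.0, 12.0 and 39.3 CPM from 79, 15 and 85 UMIs, with ratios of 0.343 (0.183 to 0.600) and 3.28 (1.88 to 6.11).

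The capillary subset, by contrast, held 50.5, 52.2 and 52.7 CPM of Kit, and both its ratios, 1.03 (0.787 to 1.36) and 1.0104 (0.785 to 1.30), had intervals that included 1. The arterial subset held 12.6, 14.9 and 2.11 CPM from 7, 7 and 1 UMIs. Whether subsets differed in their response was not tested. At the young PBS make-up of endothelial subsets the old-to-young ratio of Kit was 0.660, against 0.733 as measured. At the old PBS make-up the rMETRNL-to-PBS ratio was 1.23, against 1.39. Cells outside the named subsets, the Apln-led sub-cluster among them, were pooled here, so shifts within that pool were not held fixed.

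**Figure D5:**
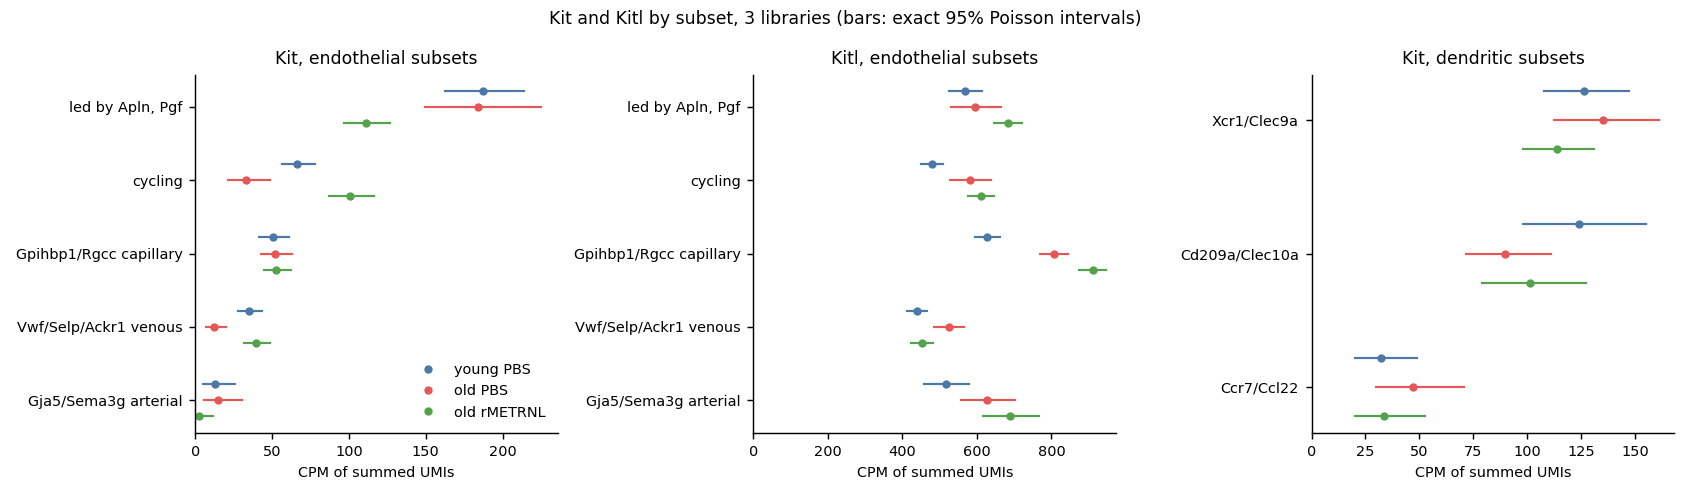
Kit and Kitl by endothelial subset, with the unnamed sub-cluster led by Apln and Pgf, and Kit by dendritic subset (CPM of summed UMIs, linear axes from 0), 1 point per library with its exact 95% Poisson interval. Kit in the venous subset is 35.0, 12.0 and 39.3 and in the capillary subset 50.5, 52.2 and 52.7, whereas Kitl in the capillary subset climbs from 627 to 807 and 911.

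T/NK-like cells were the third named class for Kit, at 22.6, 23.2 and 12.8 CPM from 37, 34 and 11 UMIs, with ratios whose intervals included 1. The NK subset held 22.9, 69.4 and 10.3 CPM from 16, 17 and 3 UMIs in 88, 25 and 33 cells. Of 43 T/NK-like cells with at least 3 markers of type 2 innate lymphoid cells, a known KIT-bearing lineage in part, 7 had a Kit UMI. The same rule was met by 57 FAP-like and 27 myogenic-like cells, none with a Kit UMI. A T/NK-like sub-cluster led by Foxp3 had Il1rl1, Areg and Gata3 of this list among its leading genes, so the rule does not single out that lineage. Pericyte/smooth muscle-like cells held 4.81 to 5.68 CPM from 3 or 4 UMIs, tenocyte-like cells 0.256 to 2.02 from 1 to 8 UMIs and myogenic-like cells at most 0.221 CPM.

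Mast cells, the best known KIT-bearing cells of connective tissue, formed no cluster of their own with doublet calls removed. Only 20 kept cells had at least 3 of 7 mast cell markers, and 9 of these had a Kit UMI. Among macrophage/monocyte-like cells Kit stood at 0.620, 0.337 and 0.377 CPM from 61, 33 and 42 UMIs, an old-to-young ratio of 0.543 (0.344 to 0.842). That ratio turned to 1.67 when per-cell CPM were averaged instead of summed. The 2, 3 and 7 cells of this class with mast cell markers held 36, 9 and 4 of those UMIs. Without them, a choice made after seeing the data, the levels were 0.254, 0.245 and 0.341 CPM and the old-to-young ratio 0.963 (0.527 to 1.76). In dendritic-like cells 27 of the 516 UMIs of young PBS lay in 2 such cells, and without them the old-to-young ratio was 1.09 (0.943 to 1.26). At least 3 blood progenitor markers were found in 14 cells and at least 3 melanocyte markers in 1 cell, none of which had a Kit UMI.

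The level of each gene in all kept cells together mixed these class levels with the make-up of the libraries. For Metrnl the totals were 129.7, 160.8 and 154.4 CPM, an old-to-young ratio of 1.24 that was 1.12 with the class make-up of young PBS held fixed. Its rMETRNL-to-PBS ratio of 0.960 was 1.03 with the make-up of old PBS held fixed, on the other side of 1. For Kit the totals were 6.85, 4.69 and 6.60 CPM, an old-to-young ratio of 0.685, which was 0.851 with the class make-up of young PBS held fixed. Its rMETRNL-to-PBS ratio of 1.41 was 1.11 with the make-up of old PBS held fixed. For Kitl the totals were 51.2, 59.0 and 66.6 CPM, an old-to-young ratio of 1.15 that was 1.34 at fixed make-up and an rMETRNL-to-PBS ratio of 1.13 that was 0.967, on the other side of 1. For Metrn, at 15.9, 13.7 and 14.9 CPM, the old-to-young ratio was 0.856 and 0.863 at fixed make-up.

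The ratios were then set against all genes with at least 50 UMIs over the 3 libraries, counting a gene as past the fold at a ratio of at least 1.5 or at most 0.667. In macrophage/monocyte-like cells 13.4% of 14355 genes passed from young to old PBS and 9.68% from old PBS to old rMETRNL, and of the 4 genes Kit passed with age, lower in summed CPM but higher in averaged per-cell CPM, and none passed with treatment. In FAP-like cells 14.3% of 14250 genes passed with age and 9.99% with treatment, and of the 3 genes with enough UMIs Kitl passed with age. In endothelial-like cells 19.0% of 11246 genes passed with age and 14.2% with treatment, and Metrnl alone of the 4 passed, with age, in summed CPM but not in averaged per-cell CPM, where its ratio was 1.26. In dendritic-like cells 16.3% of 9735 genes passed with age and 12.4% with treatment, and none of the 3 measured genes did.

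Genes of KIT signalling were followed as a list of 28, most of them adaptors, kinases, phosphatases and transcription factors. The list also held proteases such as Mmp9, which are not downstream of KIT. In macrophage/monocyte-like cells all 28 were measured and 1 passed the fold with age, against 13.4% of all genes, Mmp9, a protease that can release soluble stem cell factor, at 21.3, 0.704 and 1.40 CPM. The list's median old-to-young ratio was 1.08, against 1.001 over all genes tested. With treatment Mmp9 was higher and Gata2 lower, 2 of 28 against 9.68%, and the median was 0.915 against 1.03. In FAP-like cells 1 of 27 measured genes passed with age, against 14.3% of all genes, again Mmp9, at 25.7 CPM in young PBS and 14.7 in old PBS, with a median of 1.12 against 0.973, and with treatment Plcg2 was lower and Gata2 higher, 2 of 27 against 9.99%, with a median of 0.925 against 1.013.

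In endothelial-like cells, 6 of 26 measured KIT signalling genes passed the fold with age, 5 higher and 1 lower, where 19.0% of all genes tested passed, and the median ratio was 1.11 against 0.963 over all genes. Socs1, a feedback inhibitor of cytokine and KIT signalling, stood at 34.0, 92.2 and 43.9 CPM, and Stat5a, a transcription factor activated by KIT and cytokine receptors, at 7.85, 15.1 and 6.63. Gata2, a transcription factor of endothelial and blood lineages, was at 32.0 CPM in young PBS and 52.7 in old PBS, and Ptpn6 and Mitf were also higher, while Src was lower at 10 and 2 UMIs. With treatment Socs1, Stat5a and Mitf were lower and Src higher, 4 of 26, where 14.2% of all genes passed, with a median of 0.960 against 1.04. Socs1 and Stat5a were highest in the library in which endothelial Kit was lowest. The macrophage markers of the class, at 294, 541 and 394 CPM, ran in the order of Socs1, as did the muscle fibre, erythroid and T/NK markers given above, and their part in these values was not tested.

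In dendritic-like cells 3 of 23 measured genes of the list passed with age, a share no higher than the 16.3% of all genes tested. Jak2, a kinase of cytokine receptors, went from 178 to 273 CPM and Stat5a from 73.1 to 110 CPM, while Ptpn6, a phosphatase that dampens KIT, went from 171 to 105 CPM, and the median was 1.11 against 0.968. With treatment Gab2 alone was past the fold, 1 of 23 against 12.4%, at 10.7 CPM in old PBS and 17.6 in old rMETRNL, with a median of 1.006 against 1.03.

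Genes linked to the response to meteorin-like, 14 in the list, included Retnla and Mrc1 of type 2 macrophage activation. In macrophage/monocyte-like cells Retnla was past the fold with age, higher, at 60.4 and 99.6 CPM. The median ratio of the list in this class was 1.10 with age, against 1.001 over all genes, and 0.953 with treatment, against 1.03.

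In endothelial-like cells 5 of 10 measured genes of that list passed with age, all higher, with a median of 1.48 against 0.963. Of all 11246 genes tested there, 19.0% passed, 1046 higher and 1094 lower. They were Socs3 (414 and 740 CPM), a feedback inhibitor of STAT3 signalling, Il4ra (83.8 and 141), a subunit of the interleukin 4 receptor, Igf1r (40.8 and 78.8), and Mrc1 (3.23 and 8.18) and Retnla (0.923 and 3.31), which macrophages are known for, in a class whose macrophage markers also went from 294 to 541 CPM and muscle fibre markers from 26.9 to 288 CPM. With treatment Igf1r alone passed, 1 of 10 against 14.2%, lower, at 46.6 CPM in old rMETRNL, and the median was 0.765 against 1.04. In FAP-like cells Mrc1, Retnla and Prkaa2 were higher with age, 3 of 14 against 14.3% of all genes, Mrc1 at 2.10 and 3.42 CPM, with a median of 1.2003 against 0.973, and Ppargc1a and Prkaa2 were lower with treatment, with a median of 0.826 against 1.013. Muscle fibre markers in FAP-like cells stood at 20.7, 88.3 and 35.1 CPM and macrophage markers, which include Mrc1, at 191, 213 and 227 CPM, and their part was not tested. In dendritic-like cells Igf1, Igf1r and Mrc1 were higher with age, 3 of 10 against 16.3% of all genes, with a median of 1.31 against 0.968, and Il10 and Pparg higher with treatment, 2 of 10 against 12.4%, with a median of 0.918 against 1.03. The muscle fibre markers of that class, at 119, 259.6 and 158 CPM, and its dendritic markers, at 1617, 2227 and 1554 CPM, were highest in old PBS, and their part was not tested.

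The other type III receptor tyrosine kinases and their ligands, 11 genes, served as relatives of Kit. Flt3, the receptor that marks dendritic-like cells, stood at 116, 121 and 97.1 CPM in them, ratios of 1.04 and 0.7998. Csf1r, the receptor that marks macrophages, stood at 683, 708 and 600 CPM in macrophage/monocyte-like cells. Past the fold in macrophage/monocyte-like cells were Pdgfb (32.0 and 21.2 CPM, lower) and Pdgfra (0.437 and 0.694, higher) with age and Pdgfrb (lower) with treatment, of 9 measured, where 13.4% and 9.68% of all genes passed, with medians of 1.04 against 1.001 and 1.06 against 1.03. In FAP-like cells Pdgfa went from 22.2 to 40.6 CPM and Pdgfc from 5.85 to 10.9 CPM with treatment, and Pdgfc was lower and Pdgfb higher with age. That was 2 of 10 measured genes in each contrast, against 14.3% of all genes with age and 9.99% with treatment, with medians of 1.07 against 0.973 and 1.05 against 1.013.

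In endothelial-like cells Csf1r, Pdgfrb and Pdgfa were higher with age, 3 of 7, where 19.0% of all genes passed, with a median of 1.02 against 0.963, and Pdgfrb was lower with treatment, 1 of 7 against 14.2%, with a median of 0.811 against 1.04. The macrophage markers of the class, which include Csf1r itself, went from 294 to 541 and 394 CPM and the pericyte/smooth muscle markers from 327 to 535 and 479 CPM, and their part was not tested. In dendritic-like cells Flt3l was lower with age and higher with treatment, from 41, 13 and 34 UMIs. That was 1 of 6 measured genes in each contrast, near the 16.3% and 12.4% of all genes, with medians of 0.912 against 0.968 and 0.991 against 1.03.

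The genes whose pattern over the 24 class-by-library sums was most like that of each member were sought among 13333 genes, by the correlation of log2(CPM + 1), as a description. For Metrnl they were Tbc1d10a (r = 0.912), Mcoln2, Xylt1, Il17ra and Creg1. For Metrn they were Agpat3 (r = 0.918), Mrpl41, Snhg3, Mif and Pstk. For Kit they were Spint2 (r = 0.956), Ubxn2a, Tagln2, L1cam and Nop53, and for Kitl they were Tor1aip2 (r = 0.964), Chst1, Cldn15, Acy3 and Lims2. The fifth gene in each order still had r of 0.866 to 0.942. Between the 4 members themselves r ranged from -0.50 to 0.04. The points share libraries and class names, so that r mainly describes the order of the classes.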

How the data were processed

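The deposited matrices hold unnormalised UMI counts of genes by barcodes, made by the authors with Cell Ranger, 5.0.0 per the file headers. The submitters' processing notes name versions 5.0.0 and 3.1.0 and the build mm10, and the study's methods name another version. The annotation release was not given in the sources used here. Coordinates were taken from GENCODE M21 (GRCm38, the assembly of mm10) by gene ID.

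The filter kept barcodes with 500 or more detected genes and less than 10% mitochondrial UMIs. Scrublet's automatic threshold called 0 doublets in each library, so the highest scores, at 0.8% per 1000 barcodes, were removed (1154, 1164 and 1487 cells). Log-normalised counts over 2000 variable genes and 30 principal components were clustered (20 neighbours, Leiden, resolution 0.8, scanpy 1.11.5) without integration, and each class was clustered again. A class needed 3 detected markers of a fixed list and leading genes not of another class. The members, lists and rules were chosen with earlier results of these data known, and the naming rules were revised after cluster tables were seen. Where 1 library supplied most of a cluster, type and library cannot be told apart.

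UMIs were summed per class and library. For ratios at fixed subset make-up, cells outside the named subsets were pooled. Levels carry exact Poisson intervals, ratios an exact interval from the binomial split of both counts, and shares Clopper-Pearson intervals. An interval covers counting error only, and a count of 0 allows up to 3 counts. Scripts were tested on simulated counts. Genes named in the text are the 4 members in every class, the 5 most alike genes for each, and list genes past the fold of 1.5. A few others (Csf1r and Flt3 levels, leading genes of some sub-clusters, markers at 0) were named after their values were seen. Other filters, doublets kept, resolutions 0.4 and 1.6, averaged per-cell CPM and names per cell were tried. The results of 2 list genes are not reported here.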

Additional observations from a re-analysis of the deposited data

Results flagged for a closer look

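Some ratios ran in opposite directions in 2 classes with both intervals away from 1, and the difference between the classes was not tested in any of these cases. For Kit in old rMETRNL over old PBS, endothelial-like cells had a ratio of 1.385 (1.201 to 1.601) and dendritic-like cells 0.8636 (0.748 to 0.998), but the dendritic ratio was 1.061 with the filter of 1000 genes and 5% mitochondrial UMIs. For Kitl with age, FAP-like cells had 1.711 (1.62 to 1.81) and tenocyte-like cells 0.2993 (0.114 to 0.671). For Kitl with treatment, tenocyte-like cells had 3.671 (1.65 to 9.62) and myogenic-like cells 0.7837 (0.618 to 0.998), which turned to 1.121 with that filter. For Metrnl with treatment, FAP-like cells had 1.055 (1.006 to 1.11) and pericyte/smooth muscle-like cells 0.6786 (0.470 to 0.972). The tenocyte-like value rests on 7 Kitl UMIs in old PBS.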

How the results depend on the processing

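With 1 library per group, no library could be left out, and depth limits classes with under about 50 UMIs of a gene. No paired analysis was possible because each group was 1 library and no test was made. In the class with the highest level of each gene, ratios moved beyond their counting interval in these cases. Averaged per-cell CPM gave an rMETRNL-to-PBS ratio of 1.071 for Metrnl and 1.072 for Kitl. Doublet calls kept gave Kitl ratios of 1.189 with age and 1.07 with treatment. The filter of 1000 genes and 5% mitochondrial UMIs gave Kit ratios of 0.7765 with age and, reversed, 1.061 with treatment. It also enlarged the dendritic-like class, from 614, 340 and 641 to 686, 488 and 732 cells.

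The ratios in the other classes were tried under the same alternatives after seeing the data. Reversals were the Kit old-to-young ratio in macrophage/monocyte-like cells (1.667) and the Metrnl rMETRNL-to-PBS ratio in endothelial-like cells (1.022), both with averaged per-cell CPM, and the Kitl rMETRNL-to-PBS ratio in myogenic-like cells (1.121, stricter filter). The endothelial Kit ratio with treatment was 1.174 and the endothelial Metrnl ratio with age 1.261 with averaged per-cell CPM. The FAP-like Kitl ratio stayed within 1.684 to 1.742 with age. The cause of these moves was not tested.

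The shares of cells with a UMI depend on the depth by construction. In young PBS, old PBS and old rMETRNL, at least 2 UMIs gave 6.893%, 8.237% and 8.97% for Metrnl in macrophage/monocyte-like cells, 0%, 0% and 0.8929% for Metrn in T/NK-like cells, 2.326%, 2.976% and 2.077% for Kit in dendritic-like cells and 32.15%, 39.24% and 39.14% for Kitl in endothelial-like cells. Thinning to 1000 UMIs gave 15.98%, 18.17% and 18.83% for Metrnl, 0.4854%, 0.5556% and 3.333% for Metrn, 5.22%, 6.765% and 5.938% for Kit and 39.76%, 48.1% and 48.92% for Kitl. Without thinning they were 77.08%, 80.46% and 80.98%, then 16.99%, 13.33% and 17.36%, then 35.02%, 37.65% and 35.88%, and for Kitl 90.02%, 81.57% and 85.48%.

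At a fold of 2, the percent of genes past it with age and with treatment was 4.291 and 2.508 in macrophage/monocyte-like, 4.73 and 2.828 in FAP-like, 6.118 and 3.601 in endothelial-like and 4.427 and 3.092 in dendritic-like cells. With at least 200 UMIs per gene it was 8.681 and 5.982, 9.159 and 5.518, 13.02 and 8.301, and 9.798 and 6.413.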
